A study of Mus musculus with 18 samples.

Results

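EA1 and EA2 are murine lung cancer cell lines driven by a fusion of Eml4 with Alk, and the gene expression of both in culture, outside the animal, was set side by side. The compared samples were 8 of the 18 RNA-seq libraries of the series, 5 of EA1 and 3 of EA2, taken by their labels. The remaining 10 libraries, 5 of each line, came from tumor cells recovered from mice and serve here as a second set of samples of the same lines. Both lines go back to C57BL/6 lung tumors started by Adeno-Cre induction of the Eml4-Alk translocation. According to the study's methods, EA1 is p53 WT and was developed in the Malkoski laboratory, whereas EA2 is p53 null and came from the Ventura laboratory. Each is a single line, so a difference belongs to this pair of lines and cannot be assigned to the p53 status in which they also differ. Cells of both lines grew in RPMI-1640 with 10% fetal bovine serum and 1% penicillin/streptomycin. For the in vivo libraries, tumors were grown in the left lobe of the lung of male C57BL/6 mice that express GFP throughout. The GFP-negative cells of 3 to 5 pooled tumor-bearing mice were sorted for each library.

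The Eml4-Alk inversion places the kinase part of Alk, a receptor tyrosine kinase that is normally silent in lung, under the control of Eml4, and the fused kinase signals without a ligand. Loss of p53 or of the Cdkn2a locus, which encodes the cell cycle inhibitor p16INK4A and the p53 activator p19ARF, is a common companion of oncogenic kinases in lung adenocarcinoma. Carcinoma lines also differ in how far they keep an epithelial state, in which keratin filaments, E-cadherin junctions and desmosomes hold cells together. Regulators such as Twist1, Snai2 and Zeb1 move cells from that state towards a mesenchymal one, and foregut factors such as Foxa2, Gata6 and Hnf4a mark the endodermal origin of the cell.

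Values were FPKM, fragments per kilobase of transcript scaled to the library's total fragments, as the authors deposited them, and the depth behind a value is unknown because FPKM carries no read count. The 5 EA1 columns and the 3 EA2 columns stood in separate tables that were processed separately, so line and processing cannot be told apart and no test was run between them. Every difference below is EA1 minus EA2 in mean log2(FPKM + 1) after each library was scaled by a median of ratios, which understates the difference of genes with low values. Errors are standard errors from the spread among the 5 and the 3 libraries. A gene is called higher in one line where the difference was at least 2 in size, where the libraries of the lines did not overlap, and where the difference still reached 2 in the same direction with EA2 library 2 alone. Library 2 was singled out because the other EA2 libraries, 1 and 3, leaned to short transcripts. In the shortest class of genes the median log2 deviation ran from -0.02 in library 2 to 0.99 within EA2, against -0.38 to -0.27 in EA1. The FPKM of the joined genes summed to 515609 to 729700 in EA2, lowest in library 2, and to 499164 to 517069 in EA1. The EA2 table also lists exact 0s for genes that every cell uses: Eef1a1, a translation elongation factor with 14 near-identical copies in the annotation, stood at 0, 0 and 11336 in EA2 libraries 1, 2 and 3. A 0 in EA2 is therefore reported as listed at 0. The EA1 table has no value below 0.01.

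Of 24269 genes with numbers in both tables, 10934 reached 1 FPKM in at least 3 of the 8 libraries and were analysed. EA1 was higher for 363 of these genes (3.32%) and EA2 for 247 (2.26%), 610 in all (5.58%). The balance of the directions turned on EA2 library 2: with no condition on it 437 genes were higher in EA1 and 678 in EA2, and with library 2 left out 474 and 1118. Lack of overlap alone was common, with all EA1 libraries above all EA2 libraries in 3769 genes and the reverse in 3511. The difference was under 1 in size for 6611 genes (60.5%). The median over all analysed genes was 0.04, which the scaling by a median of ratios keeps small. It was 0.25 without scaling and 0.55 with equal sums of FPKM. The called differences, at least 2 in size by the rule, had a median of 2.75 among genes higher in EA1 and of -3.09 among genes higher in EA2. Of these genes, 61 and 43 reached a size of 4. Libraries of 1 line lay close together in EA1, with a median SD of 0.11 on the log2 scale, and less so in EA2, with 0.35. Cufflinks can divide reads among near-identical genes, and 1276 analysed genes (11.7%) had such a copy, as did 41 of the 363 genes (11.3%) and 40 of the 247 (16.2%). Restricted to protein-coding genes without a copy, 304 genes were higher in EA1 and 169 in EA2.

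**Figure D1:**
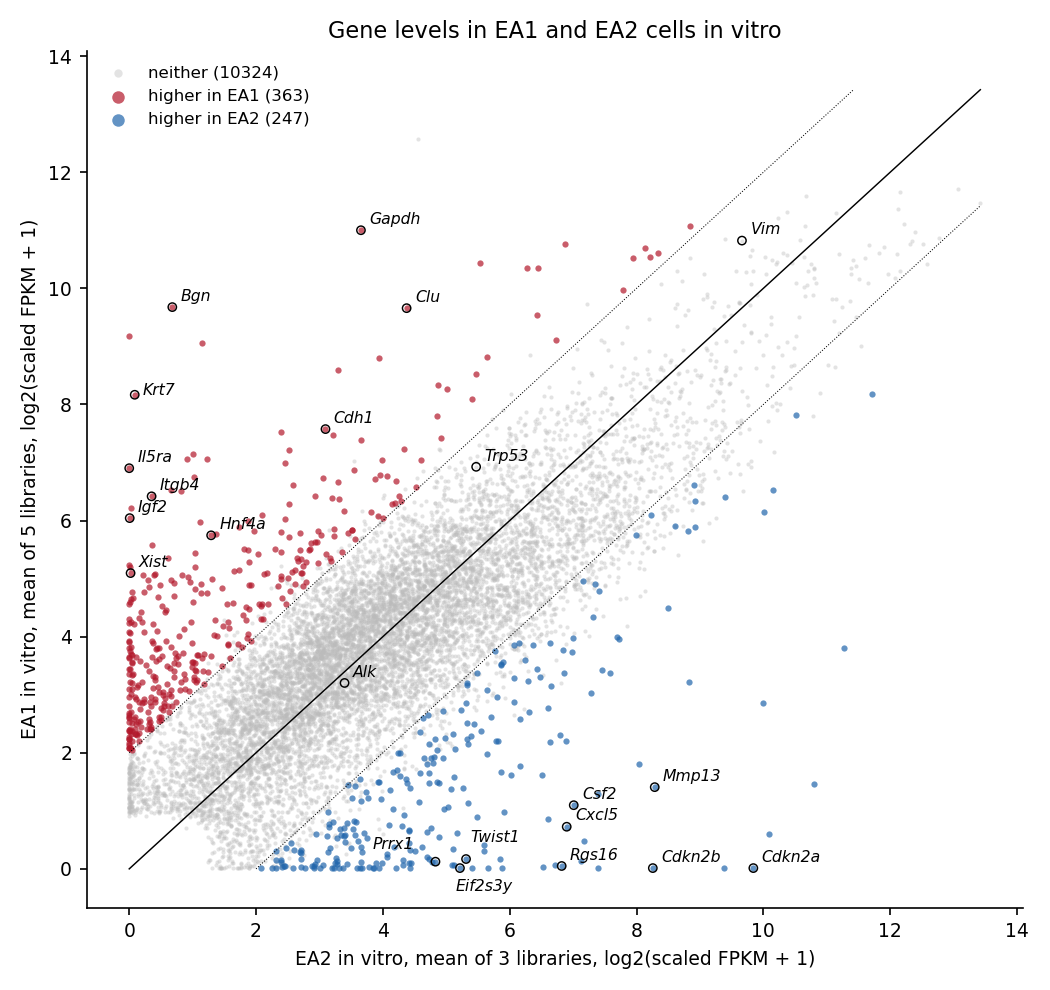
Mean log2(scaled FPKM + 1) of the 10934 analysed genes in the 3 EA2 libraries (horizontal axis) against the 5 EA1 libraries (vertical axis), 1 point per gene, with the 363 genes higher in EA1 in red, the 247 higher in EA2 in blue and dotted lines at a difference of 2. Krt7, Bgn and Il5ra lie near the EA1 axis, Cdkn2a and Cdkn2b near the EA2 axis, and Alk near the diagonal.

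Both fusion partners were expressed in both lines. Alk was listed at 7.01, 8.87, 10.0, 9.45 and 8.79 FPKM in the EA1 libraries and at 5.63, 17.0 and 6.35 in the EA2 libraries, and the lines overlapped. Eml4, which encodes a microtubule-binding protein, was at 6.55, 8.40, 10.2, 9.05 and 8.46 FPKM in EA1 and 7.78, 26.3 and 9.03 in EA2. These listed values overlapped, but after scaling all EA2 libraries lay above all EA1 libraries for Eml4. In both genes EA2 library 2 was the highest of the 8 libraries, and neither was called (differences -0.19 and -0.73). A gene-level value adds reads of the fusion to those of the unfused genes.

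The largest difference of a protein-coding gene lay at the INK4 locus. Cdkn2a was listed at 924, 867 and 691 FPKM in the EA2 libraries, while all 5 EA1 libraries stood at the table's lowest value of 0.01. Its neighbor Cdkn2b, which encodes the related inhibitor p15INK4B, was at 342, 270.4 and 221 FPKM in EA2 and also at 0.01 in every EA1 library. The lines were thus fully separated at both genes, with differences of -9.83 ± 0.19 and -8.24 ± 0.26 (SE, n = 5 and 3), and no fold is given against libraries at the lowest value. With EA2 library 2 alone they were -9.65 and -7.97. In tumors, Cdkn2a was at 0.01 to 0.269 FPKM in the 5 in vivo EA1 libraries and at 1096 to 1415 in the 5 of EA2.

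The start regions of Cdkn2a and Cdkn2b are shown because both genes stood at the lowest value in every EA1 library. RefSeq places 2 starts in Cdkn2a, 12427 bases apart on the minus strand of chromosome 4 (GRCm38.p6). The outer one is that of the p19ARF transcript, the inner one that of the p16INK4A transcript, and the Cdkn2b start lies 16413 bases beyond the outer one. Each sequence runs 5′ to 3′ on the minus strand from 250 bases before to 50 bases after the start, at chr4:89294570-89294869, chr4:89282143-89282442 and chr4:89310983-89311282. Capitals mark the GC box, GGGCGG or CCGCCC, a hexamer searched on both strands.
Cdkn2a outer start: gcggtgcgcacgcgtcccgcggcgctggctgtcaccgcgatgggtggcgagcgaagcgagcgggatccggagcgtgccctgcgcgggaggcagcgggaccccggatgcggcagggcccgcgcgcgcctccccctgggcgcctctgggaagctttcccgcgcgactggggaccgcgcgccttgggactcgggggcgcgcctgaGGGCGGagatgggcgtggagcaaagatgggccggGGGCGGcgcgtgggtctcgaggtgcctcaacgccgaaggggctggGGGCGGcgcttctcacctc
Cdkn2a inner start: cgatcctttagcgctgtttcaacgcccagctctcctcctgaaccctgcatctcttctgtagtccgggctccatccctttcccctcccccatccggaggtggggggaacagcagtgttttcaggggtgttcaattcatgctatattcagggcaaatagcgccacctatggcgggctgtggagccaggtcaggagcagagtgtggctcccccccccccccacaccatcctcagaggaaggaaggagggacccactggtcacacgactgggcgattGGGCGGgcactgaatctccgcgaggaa
Cdkn2b start: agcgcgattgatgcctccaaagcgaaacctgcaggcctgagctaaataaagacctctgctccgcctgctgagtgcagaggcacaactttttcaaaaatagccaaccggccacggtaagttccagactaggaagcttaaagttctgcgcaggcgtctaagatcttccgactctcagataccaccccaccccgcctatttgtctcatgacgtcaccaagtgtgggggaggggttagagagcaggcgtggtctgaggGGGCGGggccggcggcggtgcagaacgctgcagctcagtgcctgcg
The outer Cdkn2a region held 3 GC boxes, at -48, -14 and 32 from the start, and 45 CG dinucleotides. The inner region held 1 GC box, at 24, with 12 CG dinucleotides, and the Cdkn2b region 1, at 5, with 18. A GC box was present in 35.7% of the 32851 RefSeq promoters of this length, and the matches are a description of letters only. A gene-level value does not separate the 2 Cdkn2a transcripts.

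Genes on the Cdkn2a side of the locus were expressed in EA1. Mtap, the methylthioadenosine phosphorylase gene next to Cdkn2a, was listed at 209.8, 235, 208, 217 and 229 FPKM in EA1 and 132, 131 and 132 in EA2. Klhl9, an adaptor of a ubiquitin ligase, was at 15.0, 13.9, 14.4, 14.4 and 14.0 in EA1 and 80.6, 73.1 and 65.1 in EA2, which made it a gene higher in EA2 (difference -2.51), though not with equal sums of FPKM. Farther out, Focad held 3.40 to 3.81 FPKM in EA1 and 1.67 to 5.99 in EA2. On the Cdkn2b side neither Dmrta1 nor Zfp352 was analysed, and Dmrta1 was at most 0.152 FPKM in EA1 and 0.237 in EA2. All 29 interferon cluster genes of the neighborhood were under 0.1 FPKM in all 8 libraries. Cdkn2a and Cdkn2b thus stood at the lowest value in EA1 beside Mtap and Klhl9, which were measured there, and whether the locus is deleted or silent in EA1 was not tested.

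Trp53 itself was not a called gene. Its values were 129.5, 126, 125, 134 and 129 FPKM in EA1 and 45.9, 31.5 and 40.4 in EA2. No EA2 library reached an EA1 library, with a difference of 1.45 ± 0.29 and of 2.00 with library 2. Which part of the gene the EA2 allele lacks was not given in the sources used here, and FPKM counts reads over the whole transcript, so these values do not check the genotype. Trp53 also has 1 near-identical copy in the annotation.

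Among p53 and its target genes, 40 of the 42 in the tables were analysed: 3 were higher in EA1, 1 was higher in EA2, and 36 were not called, beside 5.58% called of all analysed genes. The median difference was 0.67, beside 0.04 over all genes. Perp, a desmosome-associated p53 target, was at 119, 113, 114, 114 and 116 FPKM in EA1 and 21.5, 9.06 and 14.1 in EA2 (difference 2.70). Ephx1, microsomal epoxide hydrolase, was at 18.4 to 32.4 in EA1 against 1.77 to 2.09 in EA2 (2.95), and Psrc1, a spindle protein, at 4.59 to 6.58 and 0.228 to 1.16 (2.07), a call that was lost without EA2 library 1 and without EA2 library 2. Cdkn1a, the p21 inhibitor of cyclin-dependent kinases and the best known p53 target, was at 72.8, 86.5, 78.2, 66.7 and 74.1 FPKM in EA1 and 8.83, 18.5 and 6.94 in EA2. Its libraries did not overlap and the difference was 2.496 ± 0.30, but with library 2 alone it was 1.97, just outside the rule. Other targets spread widely: Phlda3, an Akt inhibitor, differed by 1.60 and Zmat3, an RNA-binding protein, by 1.60, while Rrm2b, a ribonucleotide reductase subunit, differed by -1.60. Mdm2, the ubiquitin ligase that p53 induces and that degrades it, was nearly level, at 34.7 to 40.7 FPKM in EA1 and 28.8 to 37.2 in EA2 (difference -0.08). The called gene in the other direction was Pvt1, a noncoding RNA beside Myc, at 2.13 to 3.67 in EA1 against 22.2 to 31.5 in EA2 (-3.05). In the wider network of INK4, ARF, RB and p53, 18 genes were analysed, and only Cdkn2a and Cdkn2b were called. Rb1, the retinoblastoma gene, was at 8.29 to 11.3 FPKM in EA1 and 1.65 to 3.63 in EA2, and Cdk4, the kinase that p16INK4A inhibits, at 354 to 389.9 and 449.7 to 667.

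Epithelial genes were prominent among those higher in EA1. Of 53 epithelial junction and surface genes 23 were analysed, 8 were higher in EA1 and 2 in EA2, and the median difference was 1.55. Of 14 keratins 10 were analysed and 4 were higher in EA1, none in EA2, with a median of 2.202. Over all analysed genes 3.32% were higher in EA1 and 2.26% in EA2. Both medians stayed above 0 under every scaling, pseudocount and length correction tried. The same held for 25 of the 34 lists with at least 5 analysed genes, both of these included.

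Krt7, a keratin of simple epithelia, was listed at 319, 293, 301, 317 and 301 FPKM in EA1 and at 0, 0.0129 and 0.158 in EA2. Every EA1 library was far above every EA2 library, with a difference of 8.08 ± 0.08 and of 8.15 with library 2. Krt8, the partner of Krt18 in simple epithelia, was at 1635, 1404, 1432, 1439 and 1523 in EA1 and 22.5, 93.3 and 32.1 in EA2 (difference 4.90 ± 0.47). Krt8 has 1 near-identical copy, which Krt7 does not. Krt14, a basal keratin, was at 27.3 to 42.5 FPKM in EA1 and 0.251 to 0.337 in EA2, and Krt20, a keratin of gut epithelium, at 14.9 to 26.6 and 0.0132 to 0.242. Other keratins were expressed in EA2. Krt18 was at 1222 to 1440.4 FPKM in EA1 and 554 to 874 in EA2 (difference 0.73), and Krt19 at 827 to 989 and 61.0 to 262, a difference of 2.52 that was 1.80 with library 2 and so not called.

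Cdh1, the E-cadherin of adherens junctions, was at 165, 209, 245, 189.9 and 214 FPKM in EA1. In EA2 it was at 7.36, 5.54 and 7.48, and the difference was 4.48 ± 0.26. Desmosome genes were higher in EA1 too: Jup, plakoglobin, was at 54.1 to 75.9 in EA1 against 1.48 to 3.43 in EA2 (4.13). Dsc2, a desmosomal cadherin, was at 9.23 to 14.1 and 0.0139 to 0.0386 (3.51). Pkp1, plakophilin 1, was at 30.9 to 43.6 and 1.32 to 4.16 (3.41). None of these 4 genes has a near-identical copy. Esrp2, a regulator of epithelial splicing, differed by 2.60, Elf3, an epithelial ETS factor, by 2.40, and Cdcp1, a transmembrane glycoprotein listed at 0 in all EA2 libraries, was at 10.8 to 15.6 FPKM in EA1. Lsr, a tricellular junction protein, was at 54.6, 51.2, 54.8, 61.8 and 61.8 FPKM in EA1 and 7.005, 3.50 and 9.94 in EA2 (2.74). Epcam was low in both, at 1.52 to 2.27 and 0.0935 to 0.207 FPKM, and Esrp1 under 1 FPKM in every library. The 2 epithelial genes higher in EA2 were Cldn6, an embryonic claudin, at 52.0, 166 and 73.3 FPKM against 0.585 to 1.20 in EA1 (-5.75), and Mal2, a transcytosis protein, at 48.9, 68.3 and 61.3 against 5.76 to 7.55 (-3.19).

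The promoters of Krt7 and Lsr are shown because these genes belong to the group that sets the lines apart and because the Snai and Zeb repressors, whose transcripts overlapped between the lines, are known to bind the E-box CACCTG or CAGGTG. The sequences run 5′ to 3′ on the strand of the gene, from 250 bases before to 50 after the RefSeq start (GRCm38.p6), at chr15:101412153-101412452 on the plus strand for Krt7 and chr7:30973420-30973719 on the minus strand for Lsr. Capitals mark the E-box hexamer, searched on both strands.
Krt7: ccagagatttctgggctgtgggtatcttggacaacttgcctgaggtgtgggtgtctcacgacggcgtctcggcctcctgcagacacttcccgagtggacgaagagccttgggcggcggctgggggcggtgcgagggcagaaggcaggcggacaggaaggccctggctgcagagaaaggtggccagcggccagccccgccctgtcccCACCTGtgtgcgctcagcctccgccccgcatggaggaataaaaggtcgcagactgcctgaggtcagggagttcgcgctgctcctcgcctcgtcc
Lsr: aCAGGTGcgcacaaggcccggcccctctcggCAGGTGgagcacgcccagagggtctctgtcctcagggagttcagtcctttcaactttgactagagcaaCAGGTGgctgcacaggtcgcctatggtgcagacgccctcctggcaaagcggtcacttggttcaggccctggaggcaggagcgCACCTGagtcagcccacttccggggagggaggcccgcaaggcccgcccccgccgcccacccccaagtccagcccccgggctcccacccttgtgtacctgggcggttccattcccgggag
Krt7 held 1 E-box, at -44 from the start, and Lsr held 4, at -249, -219, -151 and -69. Of the 12 epithelial and keratin genes higher in EA1, 8 had a promoter in the RefSeq table, and 5 of these 8 genes held an E-box in any of their promoters. Of all 32851 promoters, counted singly, 20.2% held an E-box, so the shares are in unlike units. The GC box was in 4 of the same 8 genes, and in 35.7% of all promoters. With 8 genes these counts are a description of letters and say nothing of binding.

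**Figure D2:**
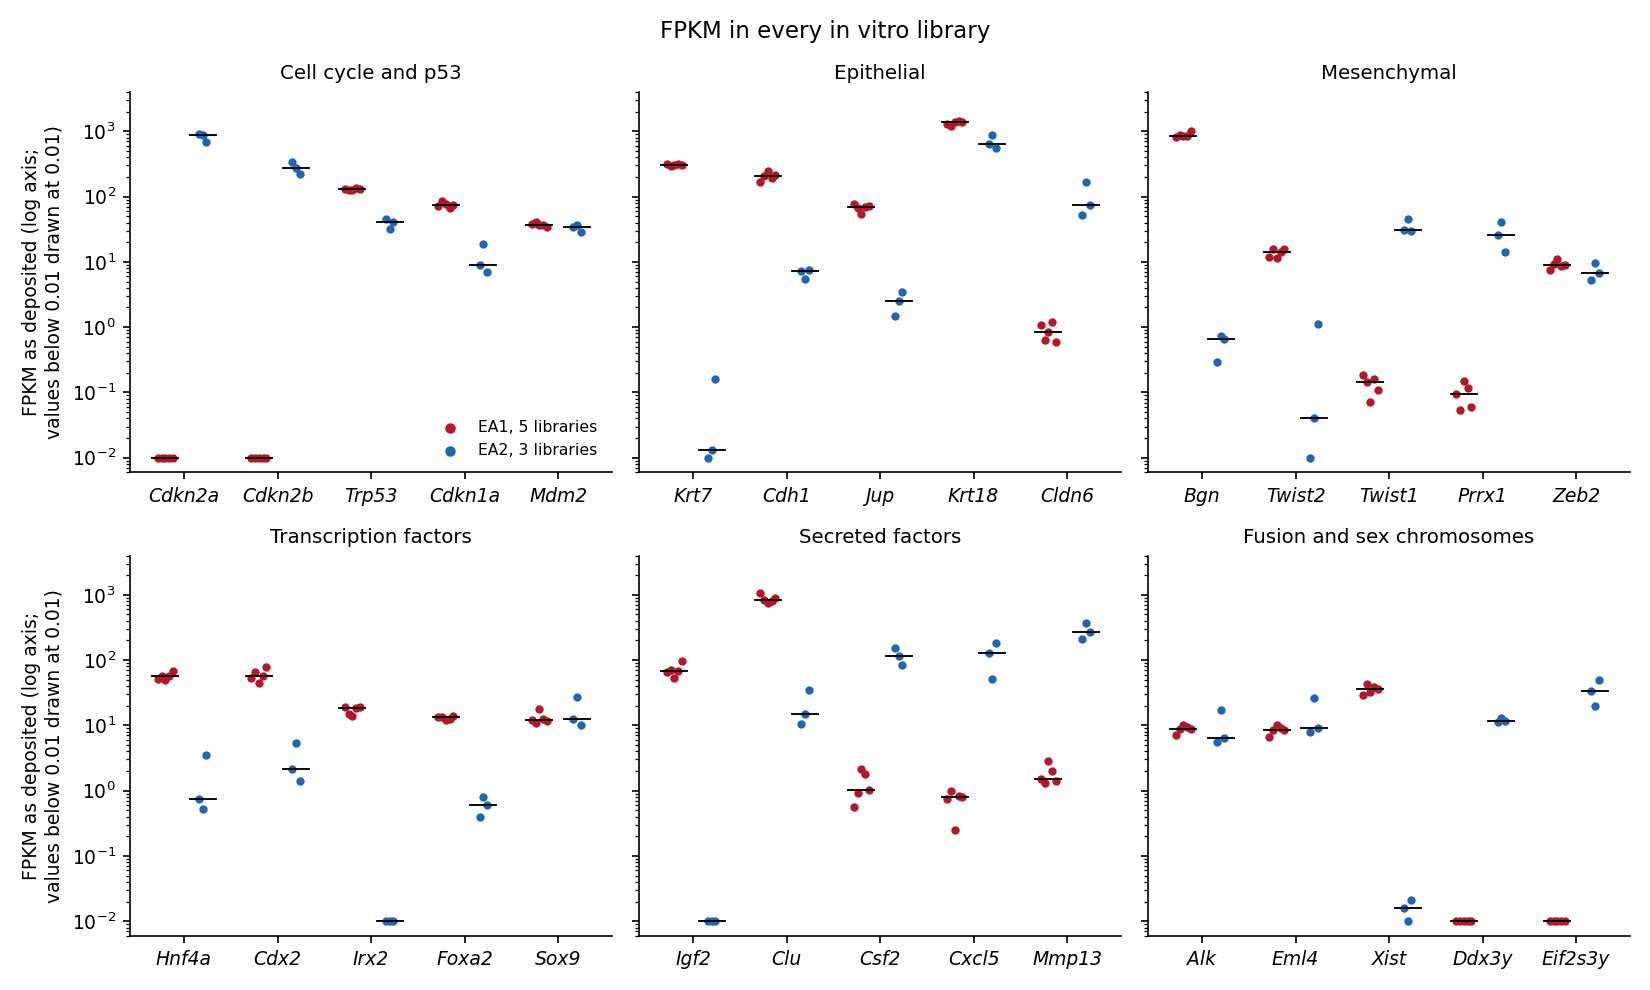
FPKM as deposited, on a log axis with values below 0.01 drawn at 0.01, for selected genes in each of the 5 EA1 (red) and 3 EA2 (blue) in vitro libraries, with a line at the median. The EA1 points of Krt7 lie between 293 and 319 and its EA2 points at or under 0.158, and Cdkn2a shows the opposite order.

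The mesenchymal genes did not form a mirror image. Of 39 analysed, 5 were higher in EA1, 4 were higher in EA2 and 30 were not called, beside 3.32% and 2.26% of all analysed genes, with a median of 0.70. Twist1, a basic helix-loop-helix regulator of mesenchyme, was at 31.1, 45.5 and 29.5 FPKM in EA2 and 0.186, 0.144, 0.0701, 0.162 and 0.107 in EA1, without overlap (difference -5.14 ± 0.09). Its paralog Twist2 went the other way, at 12.1, 15.97, 11.4, 14.0 and 15.5 FPKM in EA1 and 0, 0.0412 and 1.11 in EA2 (3.37 ± 0.40). Prrx1, a homeobox gene of limb and head mesenchyme, was higher in EA2, at 25.9, 40.2 and 14.1 against 0.0547 to 0.152 (-4.71). Tpm2, a tropomyosin, was at 61.1 to 64.3 FPKM in EA2 and 2.06 to 3.45 in EA1, and Tnc, the matrix protein tenascin C, at 22.1 to 37.7 and 0.435 to 0.727. The regulators Snai2, Zeb1 and Zeb2 overlapped between the lines, with differences of -0.12, 0.70 and 0.11. Vim, the intermediate filament of mesenchymal cells, was at 1724 to 2175 FPKM in EA1 and 523 to 864 in EA2 (1.16), and Fn1, fibronectin, at 532 to 852 and 143 to 336 (1.47), so that both were abundant in the line with the higher keratins too.

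Matrix genes were also among those higher in EA1. Bgn, the small proteoglycan biglycan, had the largest difference of any gene higher in EA1 that has no near-identical copy and a gene name of its own, at 823, 864, 843, 833 and 1018 FPKM in EA1 and 0.293, 0.729 and 0.669 in EA2. The lines were separated by a difference of 8.998 ± 0.12, and by 8.93 with library 2. Of 14 collagen chains analysed 6 were higher in EA1 (3.32% of all analysed genes were) and none in EA2 (2.26%), with a median of 1.15. Col4a1, a basement membrane chain, was at 144, 132, 136, 126 and 135 in EA1 and 2.35, 5.98 and 4.46 in EA2 (4.54), and its partner Col4a2 at 79.3 to 86.4 and 2.71 to 6.89 (3.77). Col6a1 and Col6a2, partners in collagen VI, differed by 3.71 and 3.64, Col12a1 by 2.37 and Col5a3 by 2.196, the last 2 no longer called with the length trend removed. Col1a1, the fibrillar chain most typical of fibroblasts, stayed under 2 FPKM in every in vitro library of both lines, and was at 36.6 to 544 FPKM in the EA1 and 2.13 to 102 in the EA2 in vivo libraries.

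Among 21 analysed integrins, laminins and basement membrane genes, Itgb4 and Hspg2 were higher in EA1 and Itgb7 in EA2, with Hspg2 no longer called once the length trend was removed. Of all analysed genes 3.32% were higher in EA1 and 2.26% in EA2. Itgb4, the hemidesmosome integrin, was listed at 88.0, 92.0, 97.3, 81.9 and 92.9 FPKM in EA1 and 0.280, 0.119 and 0.326 in EA2 (6.06 ± 0.11). Lad1, ladinin of the basement membrane zone, was close to it, at 89.5 to 104 and 0.329 to 1.40 FPKM (5.69), as was Tns4, a focal adhesion protein, at 98.4 to 126 and 0.0759 to 4.80 (5.73). Smoc2, a matricellular calcium-binding protein, was at 80.9 to 115 in EA1 against 0.0836 to 1.79 in EA2 (5.87). Itga6, the usual partner of Itgb4, overlapped between the lines, at 141 to 191 FPKM in EA1 and 69.8 to 194 in EA2, and the difference of Itgb1 was 0.82. Itgb7, a leukocyte integrin chain, was at 23.2, 39.1 and 12.01 in EA2 and 2.06 to 4.70 in EA1 (-2.89).

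Transcription factors of the foregut leaned to EA1 as well. Of 36 lung and foregut factors 22 were analysed, 9 were higher in EA1 and none in EA2, against 3.32% and 2.26% of all analysed genes, with a median of 1.74. Hnf4a, a nuclear receptor of liver and gut, was at 51.0, 56.2, 49.4, 58.0 and 68.7 FPKM in EA1 and 0.739, 0.516 and 3.51 in EA2 (4.45 ± 0.54). Cdx2, the homeobox gene of intestine, was at 53.8, 64.7, 44.95, 57.4 and 79.6 in EA1 and 2.15, 5.41 and 1.40 in EA2 (3.85). Irx1 and Irx2, neighboring Iroquois genes, were at 5.49 to 9.07 and 14.1 to 19.04 FPKM in EA1 and listed at 0 in all 3 EA2 libraries. Foxa2 was at 11.97 to 14.0 in EA1 against 0.399 to 0.797 in EA2 (3.00), Gata6 at 6.08 to 7.37 and 0.280 to 0.593 (2.31), and Foxq1 at 21.9 to 33.1 and 0.739 to 1.99 (3.53). Gata4 and Foxf1, factors of endoderm and of its mesenchyme, were at 5.06 to 6.51 and 7.28 to 11.6 FPKM in EA1 and at most 0.0309 for Foxf1 in EA2. Id2, an inhibitor of helix-loop-helix factors, was at 233 to 338 and 28.0 to 54.0 (2.69). Foxa1, Sox2 and Sox9 overlapped between the lines, with differences of -0.04, -0.14 and -0.45.

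The labels name both lines as lung cancer lines, and the defining lung genes Nkx2-1 and Sftpc were at or near 0 in the tables of both. Nkx2-1, the factor that sets lung identity, was at 0.01 in all EA1 libraries and listed at 0 in all EA2 libraries. Sftpc, a surfactant protein of alveolar type 2 cells, was at most 0.153 FPKM in EA1 and 0.0933 in EA2. Of 39 alveolar and airway genes 13 were analysed, and their median difference was 0.43. Aldh1a3, a retinal dehydrogenase, was higher in EA1, at 24.5 to 38.4 FPKM against 1.54 to 3.61. Pdpn, podoplanin of alveolar type 1 cells and of many motile cells, was higher in EA2, at 32.8, 40.0 and 4.33 against 0.01 in every EA1 library, with EA2 library 3 much the lowest of the 3. Abca3, the surfactant lipid transporter, was at 4.40 to 6.43 in EA1 against 0.296 to 0.831 in EA2, a difference of 2.02 that was 1.79 with library 2. Aqp5, the water channel of type 1 cells, was at 75.2 to 131 and 21.1 to 58.6 FPKM.

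Several secreted signals were higher in EA2. Of 25 analysed cytokines and chemokines 7 were higher in EA2 and 3 in EA1, against 2.26% and 3.32% of all analysed genes, with a median of -1.61. Among the 34 lists with at least 5 analysed genes, it was the only one whose median stayed below 0 under every scaling, pseudocount and length correction tried. Csf2, the granulocyte-macrophage growth factor GM-CSF, was at 154, 114 and 85.5 FPKM in EA2 and 0.555, 0.929, 2.14, 1.80 and 1.03 in EA1 (-5.91 ± 0.36). Cxcl5, a neutrophil attractant, was at 127, 52.0 and 179.8 in EA2 and 0.249 to 0.990 in EA1 (-6.17 ± 0.65). Cxcl1, which binds the same receptor Cxcr2, was at 46.5, 23.5 and 76.0 FPKM in EA2 and 2.49 to 4.16 in EA1 (-3.65). Cxcl3 was at 9.55, 6.04 and 7.51 in EA2 and 0.0321 to 0.111 in EA1 (-3.15). In these neutrophil attractants EA2 library 2 was the lowest of the EA2 libraries, and it was still above every EA1 library. Ackr3, a scavenging receptor for Cxcl12, was at 281 to 420.2 FPKM in EA2 and 15.7 to 33.3 in EA1 (-4.01), while its ligand Cxcl12 was higher in EA1, at 1.58 to 4.99 against a listed 0 in all EA2 libraries, a call that was lost with the length trend removed and with a filter at 5 FPKM. Il33, an alarmin of epithelium, was at 85.9, 89.7 and 26.8 in EA2 and 6.68 to 10.9 in EA1 (-2.78), and Ccl25, a chemokine of thymus and gut, at 47.6, 16.9 and 14.6 and 2.06 to 2.41 (-3.09). The other two genes higher in EA1 were Il1rn, the interleukin 1 receptor antagonist, at 25.7 to 48.2 against 0.0882 to 0.605 (4.68), and Cx3cl1, a membrane-bound chemokine, at 29.5 to 31.3 against 2.74 to 7.63 (2.13), a call that was lost without EA2 library 1. Csf1, the macrophage growth factor, was at 23.05 to 30.5 and 17.9 to 26.7 FPKM.

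Of 33 analysed cytokine receptors 3 were higher in EA1 and 2 in EA2, where 3.32% and 2.26% of all analysed genes were, with a median of 0.52. Among the former, Il22ra1, the interleukin 22 receptor chain, was at 5.53 to 10.8 FPKM in EA1 and 0.0231 to 0.201 in EA2 (3.02), and Tnfrsf21, a death receptor, at 28.7 to 33.3 and 1.43 to 3.97 (2.97). Il1rap, the shared subunit of receptors for interleukin 1 and interleukin 33, was higher in EA2, at 6.11 to 14.9 against 0.280 to 0.491 (-2.94), and Il13ra1 at 39.4 to 113 against 4.84 to 7.97 (-3.60). Il5ra, the interleukin 5 receptor chain of eosinophils and B-1 cells, was not on that list and had one of the largest differences of all, at 102, 131, 159.5, 117 and 131 FPKM in EA1 and listed at 0 in all 3 EA2 libraries. Its signalling partner Csf2rb was at 0.01 in every EA1 library and 0 in every EA2 library, and Il5, its ligand, was at 0.01 in EA1 and at most 0.0535 in EA2.

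Growth factors were called in both directions: of 32 analysed, 3 were higher in EA1 and 4 in EA2, beside 3.32% and 2.26% of all analysed genes. The sign of the list median depended on the processing. Igf2, an imprinted fetal growth factor, was at 65.6, 71.7, 52.8, 67.1 and 96.2 FPKM in EA1 and 0, 0.00611 and 0.00895 in EA2, a difference of 6.03 ± 0.13 with no overlap. H19, the noncoding RNA that is imprinted beside it, was under 1 FPKM in all 8 libraries, and the receptors Igf1r and Igf2r were at 9.88 to 11.5 and 8.27 to 9.07 FPKM in EA1 against 1.99 to 4.44 and 1.29 to 4.66 in EA2. Igfbp7 was higher in EA1, at 442 to 510.3 against 4.84 to 36.8 (4.87), and so was Pdgfd, at 5.98 to 7.64 against 0 to 0.257. Higher in EA2 besides Csf2 were Pgf, a VEGF relative, at 62.7 to 108 against 7.99 to 14.8 (-2.99), Gdnf, the RET ligand, at 2.55 to 6.34 against 0.0142 to 0.0723 (-2.41), and Igfbp6, at 6.48 to 18.0 against 0.116 to 0.4997 (-3.37). The receptor kinases, with 21 analysed and a median of 1.18, held 1 called gene: Egfr was at 7.24, 7.37, 8.76, 7.05 and 6.96 FPKM in EA1 and 0.241, 0.217 and 0.820 in EA2 (2.46 ± 0.22), a call that was lost when a trend with transcript length was removed. Met, the hepatocyte growth factor receptor, was at 20.3 to 26.4 and 7.79 to 17.9 FPKM (0.64), and the Egfr ligand Areg overlapped between the lines (141 to 542 and 165 to 450.5).

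Matrix proteases and their inhibitors were called in both directions, 7 higher in EA1 and 7 in EA2 of 35 analysed, beside 3.32% and 2.26% of all analysed genes. Mmp13, collagenase 3, was at 213, 374 and 272 FPKM in EA2 and 1.52, 1.29, 2.82, 2.03 and 1.41 in EA1 (-6.88 ± 0.17), and Mmp10, a stromelysin, at 34.3 to 135 and 1.58 to 3.45 (-4.91). Adamts4, an aggrecanase, was at 17.9 to 32.9 in EA2 and 0.445 to 0.797 in EA1 (-4.06). On the plasminogen side, Plau, urokinase, was at 96.5 to 127 FPKM in EA2 and 12.5 to 14.4 in EA1 (-3.25), and its inhibitor Serpinb2 at 120.1, 74.7 and 90.7 in EA2 and 0.0124 to 0.0792 in EA1 (-6.65). Ctsl, a lysosomal protease, was abundant in both lines and higher in EA2, at 1235 to 1456 against 227 to 268 (-2.71). The inhibitors of metalloproteases divided: Timp1 was at 276 to 593 FPKM in EA2 and 77.9 to 108 in EA1 (-2.58), Timp3 at 81.7 to 119 in EA1 against 7.29 to 9.05 in EA2 (3.37), and Timp2 was not called (0.88). Higher in EA1 were also the membrane collagenase Mmp14 (2.44), Adam12 (2.40), the protease inhibitor Serpine2 (3.58), the coagulation starter F3 (3.38) and Thbs1, thrombospondin 1 (2.12), of which Adam12 and Thbs1 lost their calls with the length trend removed, as did Timp1. Thbs1 was also not called without EA1 library 1 or without EA2 library 1.

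Pathways below the receptors varied in how many of their genes were called, beside 5.58% of all analysed genes. Of 26 ERK feedback and ETS genes only Spry1, a feedback inhibitor of receptor kinases, was called, at 10.2 to 12.2 FPKM in EA1 and 0.432 to 0.464 in EA2 (2.91). Of 33 TGF-beta and BMP genes 5 were higher in EA1, among them Fstl1, a BMP antagonist, at 18.9 to 32.3 and 0.0435 to 0.517 (4.22), and 2 in EA2, among them Grem1, another BMP antagonist, at 28.1 to 51.4 in EA2 and 0.278 to 2.54 in EA1 (-4.59). Tgfb1 was at 45.7 to 55.8 FPKM in EA1 and 8.55 to 22.9 in EA2, which was not called (1.53). Of 33 Wnt, Notch and Hedgehog genes, the Notch ligands Jag1 (3.50) and Jag2 (4.16) and the Wnt receptor Fzd1 (2.14) were higher in EA1. The call of Fzd1 was lost with the length trend removed, with quantile normalization and without EA2 library 1. Of 25 YAP and TAZ targets F3 was the only called gene, with a list median of 1.27. Of 23 neural genes 6 were higher in EA1, with Pcdh7, a protocadherin (4.13), Nrp1, a semaphorin and VEGF co-receptor (3.62), and Ncam1 (3.28) among them, and Nrcam was higher in EA2 (-2.68).

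The metabolic and stress lists are read beside the 5.58% called of all analysed genes. Of 44 NRF2 and antioxidant genes 3 were higher in EA1, led by Osgin1, at 90.6 to 118 FPKM against 3.19 to 8.05 (4.03). Of 31 amino acid stress genes 2 were higher in EA1, Slc7a5, a large amino acid transporter (3.47), and Stc2, stanniocalcin 2 (3.56), and the median was 0.02. Atf4, the factor of that response, overlapped between the lines (-0.38). Of 32 cholesterol and lipid genes 3 were higher in EA1 and 1 in EA2, with a median of 1.08. Among them were Dhcr7 (2.197) and Scd2 (2.37), higher in EA1, and Idi1 (-2.57), higher in EA2. The calls of Dhcr7 and Scd2 were lost without EA1 library 1 and without EA1 library 5, that of Dhcr7 also without EA2 library 1, and that of Scd2 with the length trend removed. Of 31 glycolysis and hypoxia genes 3 were higher in EA1 and 2 in EA2. Pfkp, the platelet phosphofructokinase, was higher in EA1, at 31.2 to 58.3 against 1.36 to 3.96 (3.62), and Eno2, the neuronal enolase, in EA2, at 3.43 to 9.70 against 0.0118 to 0.0770 (-2.99). Of 50 cell division genes Mki67, the proliferation antigen, was the only called gene, at 39.0, 41.5, 28.0, 37.9 and 34.4 FPKM in EA1 and 1.65, 5.29 and 8.68 in EA2 (2.55), and its call too was lost with the length trend removed. The median of the cell division list was 0.64. Birc5 and Ube2c, genes of mitosis, overlapped between the lines (-0.04 and 0.15).

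Of 30 analysed interferon-stimulated genes 1 was called in each direction, beside 3.32% and 2.26% of all analysed genes. The list median was -0.22, and it ran from -0.30 to 0.24 over the scalings, pseudocounts and length correction tried. H2-K1, a class I heavy chain with 1 near-identical copy, was at 27.0 to 44.3 FPKM in EA1 and 2.55 to 6.39 in EA2 (2.54), while its partner B2m was at 143 to 181 and 209 to 309.6 (-0.88). Ifitm3, an antiviral membrane protein, was higher in EA2, at 173 to 303 against 44.7 to 68.9 (-2.23), a call that other scalings ended. Among 16 checkpoint and immune surface genes the NKG2D ligands Raet1e (3.86) and Raet1a (2.503) and the lectin Lgals9 (2.15) were higher in EA1. The call of Raet1a was lost with the length trend removed, and that of Lgals9 without EA2 library 2. Of 4 complement genes analysed Clu, the fluid-phase inhibitor clusterin, was higher in EA1, at 1074, 837, 742, 814 and 880.1 FPKM against 10.6, 15.0 and 34.2 (5.28 ± 0.50). Lgals2, another lectin, was on no list and was at 96.8 to 214 in EA1 against 0.267 to 1.82 in EA2 (6.15). Rgs16, which shuts off G protein signals, was one of the largest differences in the other direction, at 73.2, 192 and 71.8 FPKM in EA2 and 0.0301 to 0.0450 in EA1 (-6.77).

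**Figure D3:**
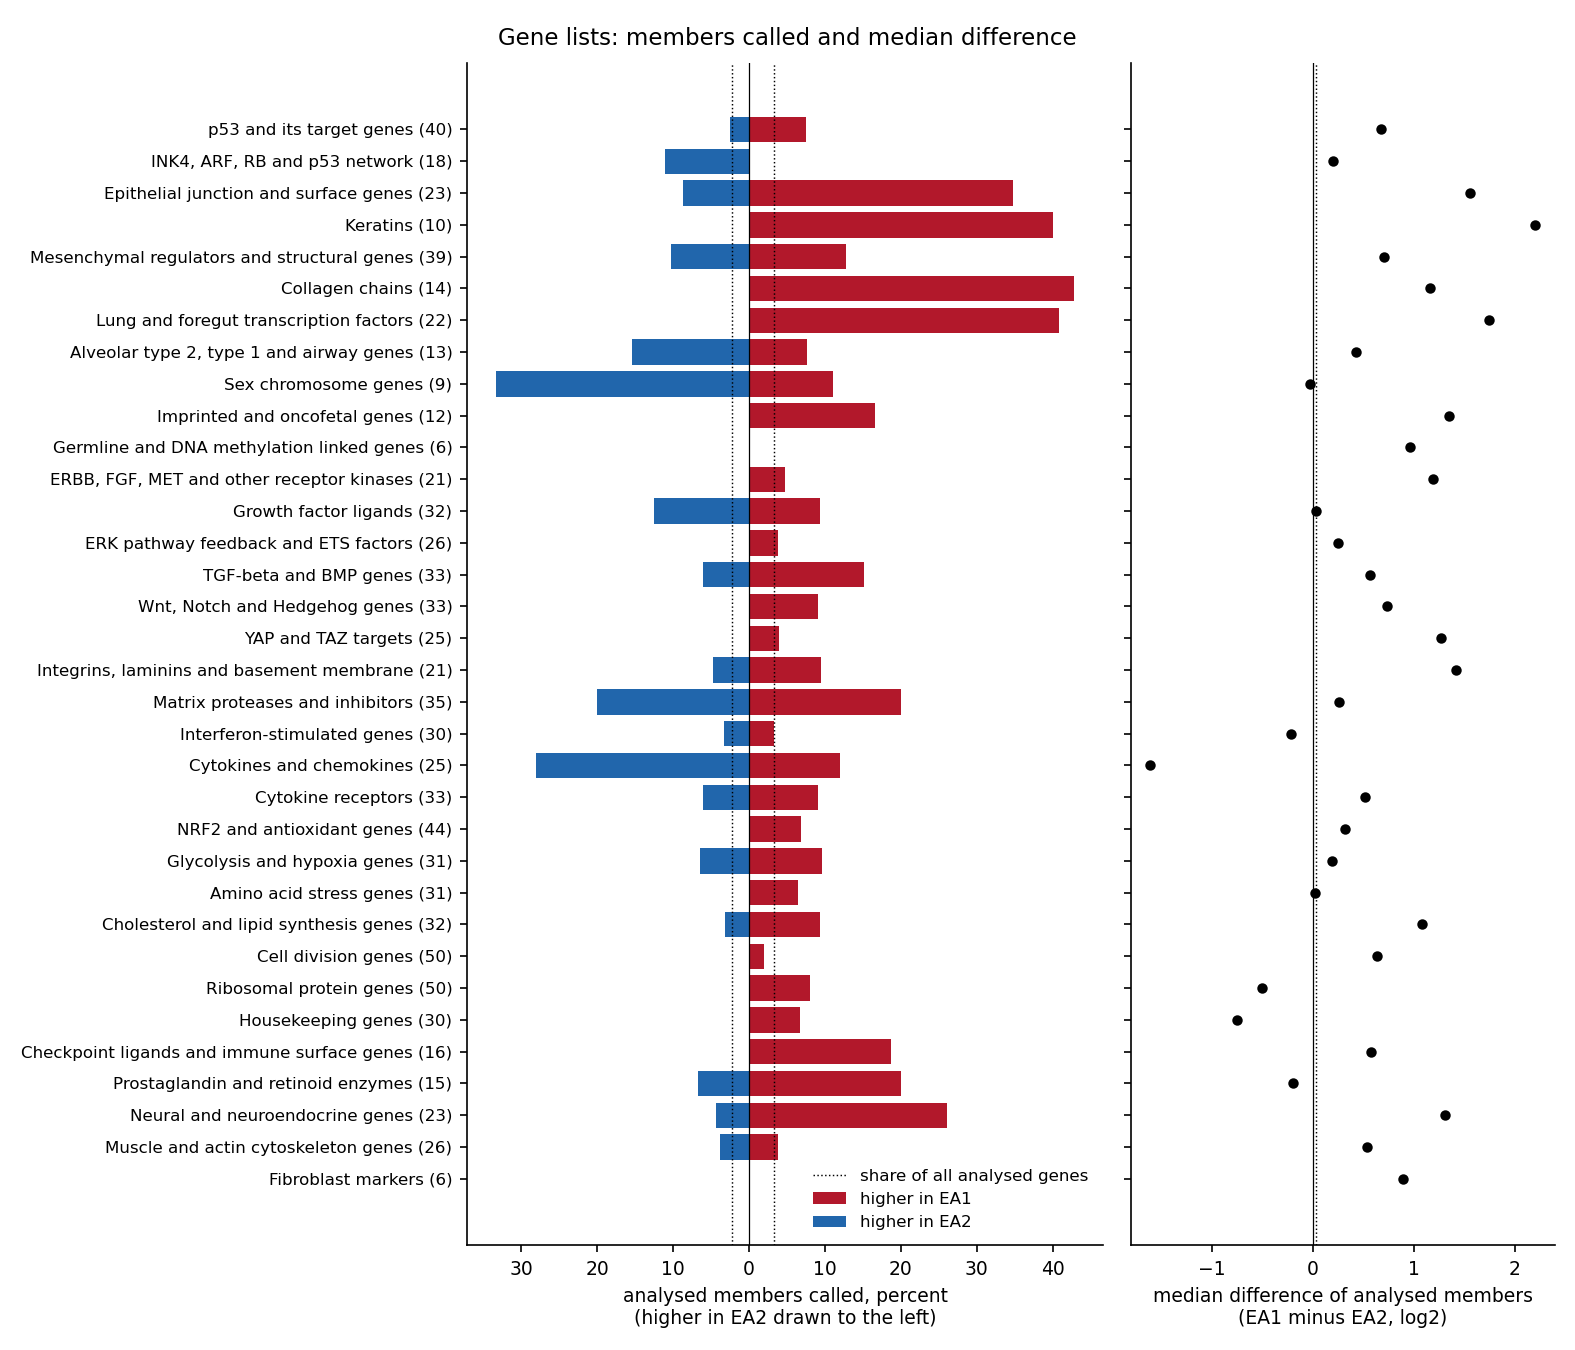
Left, the percent of the analysed members of each gene list (number in parentheses) that were higher in EA1 (red, to the right) or in EA2 (blue, to the left), with dotted lines at the shares of all analysed genes, 3.32% and 2.26%. Right, the median EA1 minus EA2 difference of each list on the log2 scale, with the keratins (2.202), foregut factors (1.74) and epithelial genes (1.55) on the EA1 side and the cytokines and chemokines (-1.61) on the EA2 side.

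Over all lists, 839 of 1389 distinct list genes were analysed, 92 were higher in EA1 and 42 in EA2, 15.97% together, beside 5.58% of all analysed genes. The lists were chosen with earlier results of these data known, so this share is not independent of the differences. The median sign depended on scaling, pseudocount or length correction in 8 of 34 lists with at least 5 analysed genes. These were the sex chromosome, growth factor, interferon, glycolysis, amino acid stress, ribosomal, housekeeping and prostaglandin lists.

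The sex chromosomes separated the lines. Xist, the noncoding RNA that silences 1 X chromosome in female cells, was at 29.1, 43.6, 32.2, 38.1 and 35.9 FPKM in EA1 and 0.0159, 0 and 0.0212 in EA2 (5.07 ± 0.09). The Y-linked genes Ddx3y, Eif2s3y and Uty were at 0.01 in every EA1 library. In the EA2 libraries Ddx3y, an RNA helicase, was at 11.3, 12.9 and 11.7 FPKM. Eif2s3y, a translation initiation subunit, was at 34.1, 20.04 and 49.2, and Uty, a histone demethylase relative, at 4.26, 4.88 and 6.85. So EA1 carried the female and EA2 the male transcript pattern in all 8 libraries. The Y-linked genes Kdm5d, Usp9y, Zfy1 and Zfy2 were at 0 in EA2 as well as at 0.01 in EA1. Kdm6a and Kdm5c, which escape X silencing, were at 17.2 to 22.05 and 21.9 to 27.0 FPKM in EA1 and 4.50 to 7.47 and 4.14 to 9.42 in EA2, and neither was called. Ddx3x, another such gene, differed by 1.24. Eif2s3x, which also escapes, was at 64.5 to 71.5 and 59.0 to 134 FPKM (-0.57), with all scaled EA2 libraries above all those of EA1, and the X-linked Usp9x at 23.9 to 30.0 and 13.1 to 41.6 (-0.02). The lines thus differ in their sex chromosome transcripts besides their p53 status.

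Chromosomes 7 and 8 stood apart from the other autosomes by their medians. On chromosome 7 the median difference over 758 analysed genes was 0.62, and 47 genes (6.20%) were higher in EA1 and 5 (0.66%) in EA2. On chromosome 8 it was 0.46 over 581 genes, with 33 (5.68%) higher in EA1 and 4 (0.69%) in EA2. Over all analysed genes the shares were 3.32% and 2.26%. On the other autosomes 0.906% to 4.75% of genes were higher in EA1. The medians of the other 17 autosomes ran from -0.33 to 0.17. With EA2 library 2 alone the medians were 0.69 and 0.33, against -0.34 to 0.21 for the other autosomes, and in the in vivo libraries they were 0.61 and 0.30, against -0.36 to 0.25. Along chromosome 7 every window of 20 Mb had a median between 0.39 and 0.74. On chromosome 8 the windows were uneven, from -0.11 to 1.30, and the last window, from 120 Mb on, was the highest. Among named genes higher in EA1, Igf2, Lsr, Galnt18 and Adam12 lie on chromosome 7, and Cdh1, Col4a1, Col4a2, Esrp2 and Nrp1 on chromosome 8. Among those higher in EA2, Ifitm3 and Rpl14-ps1 lie on chromosome 7, and Ccl25 and Ptger1 on chromosome 8. The X chromosome, with 325 genes, had a median of -0.35. DNA copy number was not measured in these libraries, and its part was not tested.

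**Figure D4:**
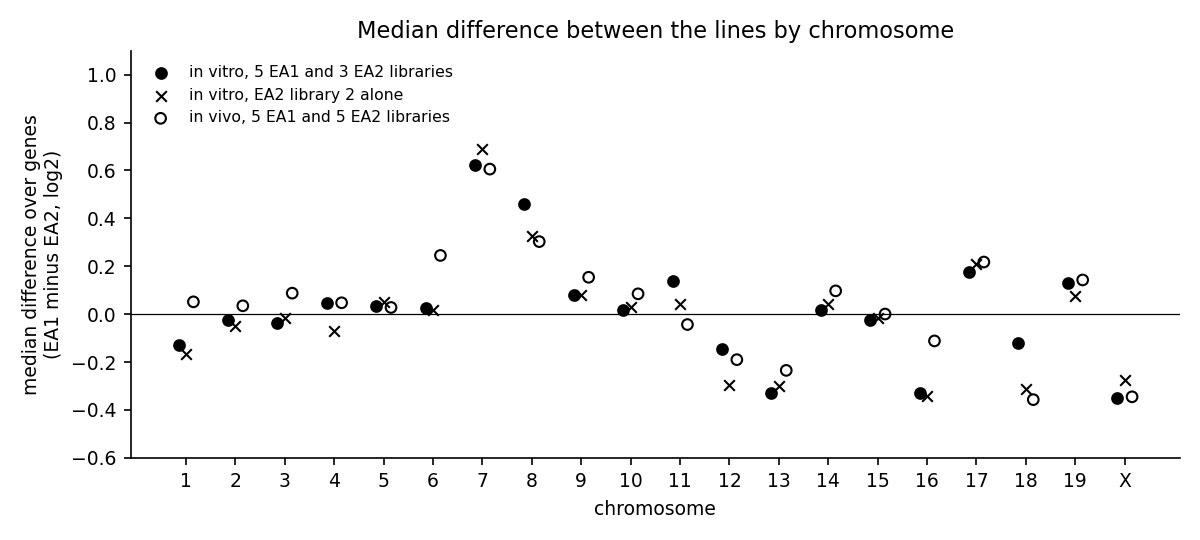
Median EA1 minus EA2 difference in log2(scaled FPKM + 1) of the analysed genes of each chromosome in vitro (filled circles), in vitro with EA2 library 2 alone (crosses) and in vivo (open circles). Chromosomes 7 (0.62 in vitro, 0.61 in vivo) and 8 (0.46 and 0.30) stand above the other 17 autosomes.

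A stricter description asks which genes were at 5 FPKM or more in every library of 1 line and at 0.1 or less in every library of the other. Among the 24269 genes, 44 met this for EA1 (0.181%) and 23 for EA2 (0.0948%), 36 and 15 of them protein-coding genes without a near-identical copy. By level, Il5ra, Igf2, Dynlt1c, Galnt18, Xist and Pxdn led the named genes of EA1. Galnt18, an enzyme that starts O-linked glycosylation, was at 40.0, 40.4, 30.2, 36.1 and 47.1 FPKM in EA1 and 0, 0 and 0.0108 in EA2. Pxdn, peroxidasin, which crosslinks collagen IV, was at 23.7 to 35.0 in EA1 against 0.0174 to 0.0434 in EA2. Dynlt1c, a dynein light chain, has 3 near-identical copies, and how its reads were divided among them, with 28.1 to 56.3 FPKM in EA1, was not tested. The EA1 set also held Irx1, Irx2, Gata4, Foxf1, Cdcp1, Dsc2 and Ceacam1, a cell adhesion molecule with 1 near-identical copy, and Reg3b, a secreted lectin of the gut, at 5.49 to 16.5 FPKM. The EA2 set was led by Cdkn2a, Snord49a, Cdkn2b, Mir682, Rgs16 and Serpinb2. Snord49a, a small nucleolar RNA, was at 331, 1115 and 571 FPKM in EA2 and 0.01 in EA1, and a polyA library does not measure such an RNA well.

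Part of the largest differences fell on genes that a counting step can misplace. Gapdh, the glycolytic enzyme often used as a reference, was listed at 2270.1, 2038, 2147, 2265 and 2234 FPKM in EA1 and 4.58, 23.9 and 9.87 in EA2. It has 161 near-identical copies. Its difference was 7.35, whereas Actb, another reference gene, was at 2502 to 3109 and 1502 to 3179 FPKM (0.16). Ppia, with 28 copies, differed by 2.22, Rpl29, with 62, by 7.92, and Eno1, with 6, by 4.07. On the other side, the ribosomal pseudogene Rpl14-ps1 was at 2868, 1579 and 2404 FPKM in EA2 and 12.7 to 16.1 in EA1 (-7.47), and Mir682, with 23 copies, and Mir703, with 5, were also higher in EA2. Rn45s, the ribosomal RNA precursor that polyA selection should remove, was at 1916, 1169 and 1811 in EA2 and 1.54, 1.93, 1.65, 2.43 and 1.89 in EA1 (-9.34). Of 50 ribosomal protein genes 41 had a copy and 4 were higher in EA1, and of 30 housekeeping genes the only called ones were Gapdh and Ppia, the latter not without EA2 library 2. Both counts stand beside 3.32% higher in EA1 and 2.26% higher in EA2 of all analysed genes. These values are given as the tables hold them, and the part of the read assignment in them was not tested.

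The 10 in vivo libraries give the same lines after growth in lung, in cells that were not used to call the genes. They stand in the same separate tables, so the line and the processing cannot be told apart there either. By size and no overlap, 6.69% of 12035 genes were higher in EA1 in vivo and 1.58% in EA2. Of the 363 genes higher in EA1 in culture 361 were analysed in vivo, and 240 (66.5%) were again higher in EA1 by the same size and no overlap. Without the condition on size, 307 (85.0%) had all EA1 libraries above all EA2 libraries, against 28.7% of all genes. Of the 247 genes higher in EA2 239 were analysed in vivo and 93 (38.9%) were higher in EA2 again, and 172 (72.0%) had no overlap in that direction, against 21.5% of all genes. The median difference was 2.59 in vivo after 2.75 in vitro for the first set, and -1.68 after -3.09 for the second.

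**Figure D5:**
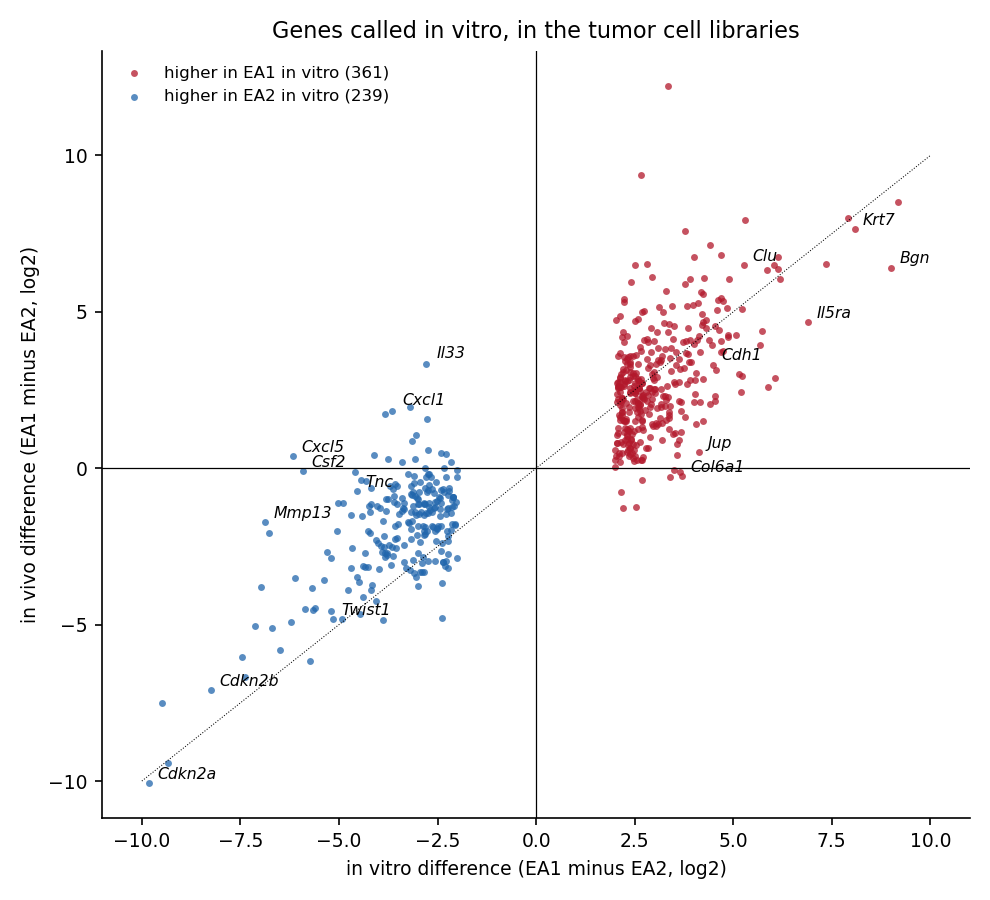
EA1 minus EA2 difference in log2(scaled FPKM + 1) in vitro (horizontal axis) and in vivo (vertical axis) for the called genes analysed in both, 1 point per gene, with a dotted line of equal values. Genes higher in EA1 in culture had a median of 2.59 in vivo, and genes higher in EA2 had a median of -1.68 and lie closer to 0.

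The keratin and foregut differences were called in vivo too. Krt7 differed by 7.66, Krt8 by 6.05, Cdh1 by 3.31, Hnf4a by 3.95 and Cdx2 by 3.66, and Twist1 by -4.83 and Cldn6 by -6.17 in the other direction. Igf2 (6.49), Il5ra (4.67) and Bgn (6.42) were also called in vivo. Cdkn1a was at 44.0 to 66.9 FPKM in the EA1 tumor cell libraries and 6.09 to 15.1 in those of EA2. It was called there, where the rule had no condition on library 2, which alone kept it uncalled in culture. Its difference was 2.496 in culture and 2.53 in vivo. Reg3b was at 1040.0 to 8207 FPKM in the EA1 in vivo libraries and listed at 0 in all those of EA2. Lung epithelial markers moved with these genes in vivo. Sftpc was at 20.5 to 174 FPKM in EA1 and 0.312 to 16.5 in EA2, a gene called higher in EA1 in vivo, after at most 0.153 in culture. The summed FPKM of 39 alveolar and airway genes was 1736 to 4186 in EA1 in vivo and 524 to 870.1 in EA2 in vivo, against 710 to 1104 and 677 to 1434 in culture. Of these 39 genes, 0 in EA1 and 1 in EA2 stayed under 0.1 FPKM in all in vivo libraries. The part of normal lung epithelium in the in vivo differences was not tested.

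Several secreted and matrix genes that were called in culture differed by less than 1 in vivo. Csf2 was at 0.732 to 3.15 FPKM in the EA1 and 0.966 to 2.76 in the EA2 in vivo libraries (-0.09), and the differences of Cxcl5 (0.39), Grem1 (-0.12) and Tnc (-0.72) were of that kind. Serpinb2 was under 1 FPKM in all 10 in vivo libraries and was not analysed there. On the EA1 side the same held for Col6a1 (-0.26), Jag1 (-0.06), Jup (0.51) and Pkp1 (-0.29). Cxcl1 (1.83) and Il33 (3.34) stood in the opposite order in vivo, with all EA1 libraries above all EA2 libraries. Whether the lines differed less in vivo than in vitro at these genes was not tested. Markers of host cell types were summed as well, and whether host cells or tumor cells made these transcripts was not tested. The study describes the sorted GFP-negative cells as pure cancer cells. The summed FPKM of 15 endothelial markers was 58.2 to 122 in EA1 in vivo and 11.6 to 51.8 in EA2 in vivo. In culture it was 4.16 to 5.52 and 5.10 to 7.62. The summed FPKM of 21 leukocyte markers was 153 to 333 in EA1 in vivo and 45.5 to 167 in EA2 in vivo, against 28.5 to 32.5 and 41.2 to 48.5 in culture, so that the lowest EA2 library in vivo lay within the range of EA2 in culture. The summed FPKM of 20 fibroblast markers was 331 to 3296 in EA1 in vivo and 422 to 980 in EA2 in vivo, against 116 to 147 and 41.5 to 93.6 in culture. The part of host cells in these values was not tested.

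Markers of other cell types were mostly low in culture, with exceptions. The defining leukocyte gene Ptprc was at most 0.0259 FPKM in EA1 and listed at 0 in EA2, and 15 of 21 leukocyte markers in EA1 and 16 in EA2 were under 0.1 FPKM in all libraries. The endothelial marker Pecam1 was at most 0.0366 in EA1 and 0.246 in EA2, and the globin Hba-a1 was at 0.01 and close to 0. Cd14, the lipopolysaccharide co-receptor of monocytes, was at 25.7 to 29.8 FPKM in EA1 and 24.4 to 43.5 in EA2 and gave most of the leukocyte sum, and Egfl7, on the endothelial list, was at 2.02 to 2.67 and 1.04 to 1.59. Cd68, a lysosomal protein of macrophages that other cells also make, was the 1 called leukocyte marker, at 5.90, 17.2 and 3.19 FPKM in EA2 and 0.790 to 1.31 in EA1, and other scalings, or leaving out EA2 library 2, ended its call. Of the 20 fibroblast markers 7 in EA1 and 12 in EA2 were under 0.1 FPKM in all libraries, and none was called.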

How the data were processed

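RNA from the 8 in vitro and 10 in vivo libraries was isolated with a column kit and made into stranded polyA libraries. Per the labels and the study's methods, the authors aligned reads to mm10 with STAR and computed FPKM with Cufflinks. The submitters' processing notes give Cufflinks as version 2.0.2, whereas the study's methods name another version. FPKM per gene were deposited in 1 table per line, with no counts, so depth and counting error are unknown. The study describes the libraries of a group as repeated isolations, without saying whether these came from separate cultures.

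The EA1 table held 24341 entries, of which 6 with a status word in place of a value were left out, and the one for EA2 held 24347, of which 27 with date-like names were left out. The remaining 24335 and 24320 were joined by name to 24269 genes, and 0 value columns went unused. Values were scaled by a median of ratios over the joined genes with at least 1 FPKM in every compared library, separately in vitro and in vivo. The in vitro factors were 1.03 to 1.09 in EA1 and 0.777 to 1.07 in EA2. The pseudocount was 1 FPKM, and the analysed genes reached 1 FPKM in 3 or more in vitro libraries. No test was run, because the tables were normalized separately. In vivo the same rule applied, without the condition on library 2.

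Of the analysed genes 10417 matched RefSeq by symbol and 10540 had a transcript length. Near-identical copies were found by aligning GENCODE M21 transcripts to themselves with minimap2 2.31 (at least 90% identity over 50% of the gene's longest transcript, or over 80% of the other and 400 bases). Promoters are RefSeq's (GRCm38.p6). Python 3.11.15, numpy 2.4.6, pandas 2.3.3, statsmodels 0.14.6 and matplotlib 3.10.9 were used.

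The libraries, lists and rules were chosen with earlier results of these data known. Named genes are the 12 called genes of each direction with the largest difference, passing over predicted loci, up to 4 called genes of each of 40 lists, up to 2 abundant genes of each list with a difference under 1, the fusion partners, Trp53, Cdkn2a, the sex chromosome genes, and the 6 restricted genes of each line with the highest level. All other genes in the text, among them Cdkn1a, Mtap, Gata4, Vim, Cxcl12, Reg3b and Krt19, were named after their values were seen. A few called genes are not reported here by name.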

Additional observations from a re-analysis of the deposited data

Results flagged for a closer look

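Of 247 named genes examined, 23 had 1 EA1 in vitro library that stood apart from the other 4 by a gap larger than chance gives in about 5% of such groups. The gap was judged on scaled values. The values below are FPKM as deposited, given against the range of the other 4 libraries, and the gap can look smaller in them, as for Actb and Eef1a1. Replicate 1 was the highest of the 5 for Actb (3109 against 2502 to 2712), Bmp1 (38.1 against 31.7 to 34.4), Ldha (1671 against 1553 to 1585), Met (26.4 against 20.3 to 22.5), Nbl1 (52.5 against 42.3 to 46.7), Smo (36.9 against 28.4 to 31.8), Sod1 (449 against 349 to 387) and Sox2 (4.97 against 2.76 to 3.30). Replicate 1 was the lowest of the 5 for Atf4 (287 against 503 to 552) and Psat1 (216 against 331 to 362). Replicate 2 was the highest of the 5 for Mir703 (87.0 against 0.01). Replicate 3 was the highest of the 5 for Cdcp1 (15.6 against 10.8 to 12.4), Eef1a1 (6794 against 6277 to 6584), Itga6 (191 against 141 to 156), Itgb7 (4.70 against 2.06 to 2.47), Sema3e (22.9 against 16.6 to 16.9) and Sox9 (18.0 against 11.1 to 12.6). Replicate 3 was the lowest of the 5 for Cxcl12 (1.58 against 4.12 to 4.99), Cxcl5 (0.249 against 0.733 to 0.990) and Foxf1 (7.28 against 11.2 to 11.6). Replicate 4 was the lowest of the 5 for Ccl25 (2.06 against 2.28 to 2.41) and Timp3 (81.7 against 109 to 119). Replicate 5 was the highest of the 5 for Bgn (1018 against 823 to 864). Mir703, a microRNA locus, has 5 near-identical copies. The EA2 group, with 3 libraries, was not examined in this way.

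For 2 called genes the order of the lines was the opposite in every in vivo library. Cxcl1 was higher in EA2 in vitro (difference -3.65) and had all 5 EA1 libraries above all 5 EA2 libraries in vivo (1.83). Il33 was higher in EA2 in vitro (-2.78) and higher in EA1 in vivo (3.34), at 104 to 153 FPKM in EA1 and 2.42 to 34.5 in EA2. The difference between the settings was not tested.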

How the results depend on the processing

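No call among the 148 named called genes changed direction under any alternative. A pseudocount of 5 left 90 of them called and a difference of at least 3 left 87, with Foxa2, Gata6 and Egfr among those lost under both. When a trend with transcript length was removed, 130 of them were called. Among the others, Adam12, Cd68, Col12a1, Col5a3, Cxcl12, Egfr, Fzd1, Hspg2, Ifitm3, Mir703, Mki67, Ppbp, Raet1a, Scd2, Thbs1 and Timp1 were not, and Rn45s had no value there. A filter at 5 FPKM in place of 1 left 137, without Cd68, Col5a3, Cxcl12, Elf3, Eno2, Gdnf, Nrcam, Pdpn, Ppbp, Ptger1 and Uty. Other scalings ended the calls of Cd68, Dhcr7, Fzd1, Ifitm3, Klhl9, Ptger1, Scd2 or Timp1. The counts of genes higher in EA1 (363) and in EA2 (247) and of called list genes (134) depended most on the rule itself. With a pseudocount of 0.1 they were 693, 473 and 212, and with 5 they were 137, 90 and 74. With a difference of at least 1 they were 1434, 1229 and 328, and with at least 3 they were 144, 93 and 69. Leaving out each replicate in turn gave 355 to 474, 243 to 1118 and 132 to 201, and the upper ends came without EA2 library 2, where its condition could not apply either. With all libraries but no condition on library 2, 678 genes were higher in EA2, and the share of called genes higher in EA1 was 39.2% in place of 59.5%. That share was 29.8% without library 2 and 68.4% with the same sum of FPKM in each library.

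The genes restricted to EA1 (44) and to EA2 (23) were 23 and 15 with a high limit of 10 FPKM, 78 and 53 with a low limit of 0.5, and 80 and 49 with EA2 library 2 alone. Among protein-coding genes without a copy, an alternative added after seeing the data, 15 were restricted to EA2. Leaving out each replicate gave 44 to 58 and 23 to 35, the last without EA2 library 2. In vivo the 240 and 93 genes called again were 431 and 179 with a pseudocount of 0.1 in both comparisons, 85 and 30 with 5, and 57 of the EA2 genes were coding and without a copy. Leaving out each in vivo library gave 235 to 248 and 90 to 99. The cause of these changes was not tested beyond the construction of each alternative.

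Against a median difference of 0.04 over all genes, the deposited FPKM without scaling gave 0.25, equal sums 0.55, upper quartile scaling 0.24 and quantile normalization 0.07. No paired analysis was possible because the comparison comes from no test and the replicate numbers of separate tables mark no shared culture. FPKM keeps no depth, so the lowest values cannot be weighed.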
